A study of Homo sapiens with 6 samples.

Results

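The miR-148/miR-152 family is a small group of conserved microRNAs (miRs) made from 3 hairpins, MIR148A, MIR148B and MIR152. The mature miRs described here were taken by name from a table of small RNA counts: hsa-miR-148a-3p, hsa-miR-148a-5p, hsa-miR-148b-3p, hsa-miR-148b-5p and hsa-miR-152-3p, 5 of the 2588 names listed. All 6 libraries came from HEK293T, a human embryonic kidney cell line, and asked how depletion of RPL24, a protein of the large ribosomal subunit, changes miR levels. In the 3 RPL24 knockdown (KD) libraries the cells had received siPOOLs, mixtures of many siRNAs, against RPL24 at 50 nM, and in the 3 negative control (NC) libraries non-targeting siPOOLs at the same dose. Cells were collected 72 h after the siPOOLs. A plasmid carrying miR-608 is named in the labels of KD and NC alike, as added 48 h into the siPOOL treatment. The study's text, however, sets the sequenced knockdown apart from the other knockdowns and gives miR-608 as undetected there. The count of miR-608 was 0 in all 6 libraries, so none of it was detectable at this depth. Libraries 1 and 2 of each group are numbered as in the labels, while the remaining KD and NC libraries, whose numbers in the count table match no label, are called unnumbered.

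A miR hairpin is cut out of its primary transcript by the Microprocessor and trimmed by Dicer to a short duplex. A single strand of the duplex, the guide, is usually retained by an Argonaute protein, and the other, the passenger, is mostly degraded. In this family the guide is the 3p arm. The guide finds its target mRNAs mainly through its seed, bases 2 to 8, so that miRs with the same seed can share targets. The family is known for targeting the DNA methyltransferase DNMT1 and the antigen-presenting molecule HLA-G, and miR-148a is known as an abundant miR of the liver and as a regulator of LDL receptor levels.

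The mature sequences are shown because the 3 guides differ so little that a read may be hard to assign. RefSeq (GRCh38.p14) held a mature entry for 4 of the 5 members, and miR-148a-5p is given by name only. Capitals mark the seed, bases 2 to 8, and each sequence is written 5′ to 3′.
miR-148a-3p, chr7:25949922-25949943, minus strand: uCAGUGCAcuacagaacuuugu
miR-148b-3p, chr12:54337278-54337299, plus strand: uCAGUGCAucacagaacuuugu
miR-152-3p, chr17:48037174-48037194, minus strand: uCAGUGCAugacagaacuugg
miR-148b-5p, chr12:54337240-54337261, plus strand: aAGUUCUGuuauacacucaggc
The 3 guides carried the same seed, CAGUGCA, and the passenger arm of miR-148b carried a different seed. Counting positions from 1 at the 5′ end and giving the base of the first-named miR first, miR-148a-3p and miR-148b-3p differed at 2 of 22 bases (C9U and U10C). The guides miR-148b-3p and miR-152-3p differed at 2 of the 21 bases compared (C10G and U20G), and miR-148a-3p and miR-152-3p at 3 (C9U, U10G and U20G). How reads that fit more than a single miR were counted is not stated in the sources used here, so the division of reads among the 3 guides is uncertain to that extent. Of the 2281 listed names with a RefSeq mature sequence, 3 had the letters CAGUGCA at bases 2 to 8, and these were the 3 guides.

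The 3 hairpins lie on different chromosomes. In GENCODE 29 on GRCh38, MIR148A (chr7:25949919-25949986, minus strand) lay inside no annotated host transcript, and the nearest protein-coding gene, NFE2L3, was 202254 bases away. MIR148B (chr12:54337216-54337314, plus strand) lay in an intron of 17 COPZ1 transcripts, intron 1 in 16 of them, and in an exon of 0. It also lay in an intron of 1 transcript of AC078778.2, a gene that overlaps COPZ1. MIR152 (chr17:48037161-48037247, minus strand) lay in intron 1 of 3 COPZ2 transcripts and in an exon of 0. COPZ1 and COPZ2, paralogs that encode zeta subunits of the COPI vesicle coat, thus host the paralogous hairpins in the sense direction. Each hairpin also had a miR hairpin of a HOX gene cluster on its chromosome, MIR196B at 1219 kb from MIR148A, MIR615 at 303.2 kb from MIR148B and MIR10A at 543 kb from MIR152.

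The libraries held from 398721 to 611745 counts. A count of 3, taken as the smallest amount that this depth can show, corresponded to between 4.90 and 7.52 CPM, the count scaled to a common library size, and such floors cover counting error only. Levels below are read counts or CPM after scaling by TMM (trimmed mean of M values), a method that aligns libraries on the miRs that change little. Each read spans a whole mature miR, so no correction for length was made. Of the listed names, 360 passed the filter on low counts (edgeR's filterByExpr, minimum count 10), and all 5 members were among them. The small RNA libraries do not measure RPL24 mRNA, so its depletion could not be checked in them. For HEK293T given these siPOOLs, the study reports reduced RPL24 mRNA by RT-qPCR and shows a western blot of the protein. It describes the sequenced knockdown as a separate experiment. The labels do not say whether the libraries of a group came from separate cultures, and p-values then measure only the spread between libraries.

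The guide miR-148a-3p was the most abundant miR of every library. Its counts were 68133, 75162 and 53218 in RPL24 KD libraries 1, 2 and unnumbered, and 78215, 56841 and 61677 in NC libraries 1, 2 and unnumbered. It took between 12.02% and 14.3% of the counts of a library, with 95% Wilson intervals of at most 0.109 percentage points to either side. The next miR, miR-92a-3p, a guide of the miR-17-92 cluster, took between 10.2% and 12.03%. After scaling, miR-148a-3p stood at 124590, 125060 and 133317 CPM in the RPL24 KD libraries and at 136814, 142091 and 116928 CPM in the NC libraries, in the same order. The unnumbered NC library was the lowest of the 6 and NC replicates 1 and 2 the highest, so the groups overlapped.

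The guide miR-148b-3p ranked between 26 and 29 by count within a library. It stood at 7847, 7745 and 7954 CPM in the RPL24 KD libraries and at 7903, 8124 and 8232 CPM in the NC libraries. The highest RPL24 KD library lay above the lowest NC library, and the whole range over the 6 libraries was narrow. The guide miR-152-3p was far rarer, with from 105 to 147 counts a library. Its levels were 258, 245 and 268 CPM in the RPL24 KD libraries and 238, 355 and 199 CPM in the NC libraries. The RPL24 KD libraries all lay inside the range of the NC libraries, whose highest was NC replicate 2.

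Of the passenger arms, miR-148a-5p had from 401 to 598 counts a library. It stood at 940, 978 and 1005 CPM in the RPL24 KD libraries and at 1046, 1117 and 883 CPM in the NC libraries, which again put the unnumbered NC library lowest and NC replicate 2 highest. The passenger miR-148b-5p had from 48 to 77 counts. Its levels were 130, 128 and 120.2 CPM in the RPL24 KD libraries and 103, 132 and 100.5 CPM in the NC libraries, where NC replicate 2 was above every RPL24 KD library and the other NC libraries were below. The remaining arm of the family, miR-152-5p, is no member here and had from 1 to 3 counts, at or under the floor. In each of the 6 libraries the order of the levels was miR-148a-3p, miR-148b-3p, miR-148a-5p, miR-152-3p and miR-148b-5p, and no neighbours in that order overlapped in CPM over the libraries.

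The guide reads of the family were mostly miR-148a-3p, so it gave most of the family's reads with the shared seed. These are shares of reads, and how they relate to amounts in the cells was not tested. The summed counts of the 3 guides made up between 12.9% and 15.1% of a library. Of these guide reads miR-148a-3p gave between 93.3% and 94.4%, miR-148b-3p between 5.40% and 6.57% and miR-152-3p between 0.159% and 0.236%. The summed level was 135761 ± 5007 CPM in RPL24 KD and 140295 ± 13236 CPM in NC (each SD, n = 3), a difference smaller than the SD of the NC libraries.

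The spread among the NC libraries differed from member to member. The coefficient of variation (CV, the SD as a share of the mean) among the NC libraries was 30.7% for miR-152-3p, 15.8% for miR-148b-5p, 11.8% for miR-148a-5p, 10.1% for miR-148a-3p and 2.07% for miR-148b-3p. Among the RPL24 KD libraries it was lower for all 5, between 1.33% for miR-148b-3p and 4.58% for miR-152-3p. A larger CV in NC than in RPL24 KD was found in 217 of the 360 miRs tested (60.3%) and in 45 of the 58 whose mean count was 1000 or more (77.6%). It was therefore common outside the family too.

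Counting error alone would give a CV of 0.391% for miR-148a-3p in NC, 1.57% for miR-148b-3p, 4.46% for miR-148a-5p, 8.85% for miR-152-3p and 13.5% for miR-148b-5p. The NC spread of miR-148a-3p, miR-148a-5p and miR-152-3p was thus well above what counting gives, while that of miR-148b-3p and miR-148b-5p was close to it. Among the RPL24 KD libraries counting error alone would give 12.4% for miR-148b-5p, 8.71% for miR-152-3p, 4.47% for miR-148a-5p and 1.57% for miR-148b-3p. The observed 4.06%, 4.58%, 3.34% and 1.33% lay below these values in 4 of the 5 members, and an SD over 3 libraries is itself imprecise. For miR-148a-3p the RPL24 KD spread was 3.85%, well above the 0.391% that counting gives. The highest NC library exceeded the lowest by 1.78-fold for miR-152-3p and by 1.22-fold for miR-148a-3p, against 1.04-fold for miR-148b-3p. In miR-148a-3p, miR-148a-5p and miR-152-3p the NC libraries had the same order, NC replicate 2 highest and the unnumbered NC library lowest, whereas in miR-148b-3p the unnumbered NC library was the highest and NC replicate 1 the lowest.

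The effect of RPL24 KD on the members was read from a fit of all 360 miRs (edgeR, quasi-likelihood). Differential expression (DE) meant a Benjamini-Hochberg adjusted p under 0.05. None of the 5 members was DE by edgeR, and 0 had an unadjusted p under 0.05. DESeq2 called 0 of the 5 as well, with 0 at an unadjusted p under 0.05. Fitted on the tested miRs it called 14 of 359, with 56 at an unadjusted p under 0.05. Under its default filtering it called 15 of 293. Over all tested miRs, 18 (5.00%) were DE by edgeR, 12 higher (3.33%) and 6 lower (1.67%), 85 (23.6%) had an unadjusted p under 0.05, and in 99 (27.5%) the groups did not overlap in CPM. The groups overlapped in all 5 members. With total counts in place of TMM the numbers of DE miRs were 10 higher and 18 lower, again with 0 members. The total of 18 was 4 without RPL24 KD replicate 2, 7 without RPL24 KD replicate 1 and 29 without the unnumbered NC library.

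The most precise estimates were those of the abundant guides. The mean of miR-148a-3p was 127656 ± 4909 CPM in RPL24 KD and 131944 ± 13270 CPM in NC (each SD, n = 3). Its log2 fold change, -0.048 with a standard error of 0.0615, did not pass the test (adjusted p = 0.711, edgeR), and the 95% interval of the ratio ran from 0.883 to 1.06. The mean of miR-148b-3p was 7849 ± 104 CPM in RPL24 KD and 8086 ± 168 CPM in NC (each SD, n = 3). Its log2 fold change, -0.043 with a standard error of 0.0565, did not pass either (adjusted p = 0.711, edgeR), and the ratio had a 95% interval from 0.892 to 1.06. With total counts in place of TMM the estimates of miR-148a-3p and miR-148b-3p were -0.095 and -0.092. With total counts without miR-148a-3p they were -0.11 and -0.11. In neither scaling was either guide DE (edgeR).

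The intervals of the rarer members were wider. The ratio of miR-148a-5p lay between 0.834 and 1.11 (log2 fold change -0.057, adjusted p = 0.760, edgeR) and that of miR-152-3p between 0.768 and 1.28 (log2 fold change -0.013, adjusted p = 0.991, edgeR). The single member with a positive estimate was the passenger miR-148b-5p, with means of 126 ± 5.11 CPM in RPL24 KD and 112 ± 17.7 CPM in NC (each SD, n = 3). Its log2 fold change was 0.20 (adjusted p = 0.516, edgeR), with a 95% interval of the ratio from 0.907 to 1.45. It was 0.34 without NC replicate 2 and 0.13 without the unnumbered NC library, and not DE in either fit (edgeR). The median log2 fold change of the 5 members was -0.043, and that of all tested miRs -0.0084.

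The signs of the estimates of miR-148a-3p, miR-148a-5p and miR-152-3p changed when single libraries were left out. Without NC replicate 2, their highest NC library, the log2 fold changes were 0.034, 0.037 and 0.25. Without the unnumbered NC library, their lowest, they were -0.13, -0.15 and -0.17. MiR-152-3p was also above 0, at 0.034, without RPL24 KD replicate 2. In none of these fits was a member DE by edgeR, and the adjusted p of miR-148a-3p was 0.792 without NC replicate 2 and 0.0769 without the unnumbered NC library. In the 4 numbered libraries alone, miR-148a-3p had a log2 fold change of -0.17 and was DE both in the planned fit with the replicate number as a block (adjusted p = 0.00897, edgeR) and in an unpaired fit added after seeing the data (adjusted p = 0.0234, edgeR), so whether it was DE rested on whether the unnumbered libraries were used. Over all miRs, 52 of 369 were DE in the blocked fit and 34 of 369 in the unpaired fit (edgeR). MiR-148b-3p ranged from -0.058 to -0.013 over the 6 fits that each left out a library.

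Ratios between the arms of each hairpin and between the paralogs asked whether the composition of the family changed, on a measure that no scaling between libraries can move. For each library the log2 ratio of the counts was taken, and the group means were compared by an exact two-sided permutation test. With 3 libraries against 3 the exact permutation test cannot go below p = 0.1. Adjusted over the 5 ratios, p was 1 in each (exact permutation test).

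The arms of miR-148a kept a near constant ratio. There were 133, 128 and 133 reads of the guide for each read of the passenger in RPL24 KD libraries 1, 2 and unnumbered, and 131, 127 and 132 in the NC libraries in the same order. The log2 ratio was 7.03 ± 0.0305 in RPL24 KD and 7.02 ± 0.0297 in NC (each SD, n = 3), a difference of 0.010 (p = 0.5, exact permutation test). The NC libraries that were far apart in the level of miR-148a-3p were therefore alike in this ratio, since both arms were high or low together. Without NC replicate 2 the difference was -0.0063.

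In miR-148b the guide had 60.4, 60.5 and 66.1 reads for each read of the passenger in the RPL24 KD libraries and 76.6, 61.3 and 81.9 in the NC libraries. The log2 ratio was 5.95 ± 0.0721 in RPL24 KD and 6.17 ± 0.219 in NC (each SD, n = 3), a difference of -0.22 (p = 0.2, exact permutation test). NC replicate 2 lay among the RPL24 KD libraries and the other NC libraries above them, and the passenger had at most 77 counts in any library. This was the largest of the 5 differences, and its sign was the same in the 6 fits that each left out a library, which gave from -0.35 (without NC replicate 2) to -0.14 (without the unnumbered NC library).

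The mean ratios between paralogs differed between the groups by less than the SD of the NC libraries, which were spread widely. MiR-148a-3p exceeded miR-148b-3p by 15.9-fold, 16.1-fold and 16.8-fold in the RPL24 KD libraries and by 17.3-fold, 17.5-fold and 14.2-fold in the NC libraries. The mean log2 ratio was 4.02 in both groups, a difference of -0.00040 (p = 1, exact permutation test), and the unnumbered NC library was the lowest of the 6. MiR-148a-3p exceeded miR-152-3p by from 483-fold to 511-fold after RPL24 KD and by from 400.3-fold to 587-fold in NC, a difference in mean log2 ratio of -0.046 (p = 1, exact permutation test). For miR-148b-3p over miR-152-3p the difference was -0.045 (p = 0.8, exact permutation test), with an SD of 0.0481 among the RPL24 KD libraries and 0.431 among the NC libraries. Without the unnumbered NC library these last differences were 0.051 and 0.15, and without NC replicate 1 that of miR-148a-3p over miR-152-3p was 0.036. Without NC replicate 2 they were -0.22 and -0.28 (p = 0.2 for each, exact permutation test, the smallest p it can give with 2 libraries against 3).

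A set of 3 lists of related miRs was set beside the family. The first held miRs of HOX gene clusters on the chromosomes of the 3 hairpins, of which 6 of 8 passed the filter, and 1 of these was higher after RPL24 KD and 0 lower by edgeR, beside 3.33% higher and 1.67% lower of all tested miRs. MiR-196b-5p, a HOXA cluster miR on the chromosome of MIR148A, was the higher, by 0.37 on the log2 scale (adjusted p = 0.00407, edgeR). MiR-10a-5p of the HOXB cluster, on the chromosome of MIR152, was at -0.0045 on that scale (adjusted p = 0.986, edgeR). MiR-615-3p of the HOXC cluster, on the chromosome of MIR148B, had 0.23 (adjusted p = 0.131, edgeR), and miR-196a-5p, made from a HOXB and a HOXC hairpin, had 0.16 (adjusted p = 0.185, edgeR). In these last miRs and in miR-196b-5p the groups did not overlap, 3 of the 6 tested, beside 27.5% of all tested miRs. MiR-615-3p was DE without NC replicate 1 (adjusted p = 0.0313, edgeR) and with robust edgeR (adjusted p = 0.0460), and its log2 fold change was 0.13 without the unnumbered NC library. The median log2 fold change of the list was 0.13.

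The second list held miRs known, like the family, for targeting DNA methyltransferases, or for targeting EZH2, the histone methyltransferase of Polycomb. Of the 9 listed, 8 passed the filter, 0 were higher and 1 was lower by edgeR, beside 3.33% higher and 1.67% lower of all tested miRs. The lower was miR-185-5p, known for targeting DNMT1, at 1787 ± 28.9 CPM in RPL24 KD and 2286 ± 134 CPM in NC (each SD, n = 3). Its log2 fold change was -0.35 (adjusted p = 0.0132, edgeR). It was not DE without RPL24 KD replicate 1 (adjusted p = 0.0695, edgeR) or replicate 2 (adjusted p = 0.0668, edgeR). Its log2 fold change stayed between -0.39 and -0.31 over the 6 fits that each left out a library. The study also lists miR-185-5p as decreased after RPL24 KD and reports the decrease by RT-qPCR. MiR-26a-5p, miR-26b-5p and miR-101-3p, known for targeting EZH2, had log2 fold changes of 0.068, -0.19 and -0.15 and adjusted p-values of 0.587, 0.128 and 0.203 (edgeR). MiR-26b-5p was DE among miRs with a mean of 100 counts or more (adjusted p = 0.0336, edgeR) and with total counts without miR-148a-3p (adjusted p = 0.0374, edgeR). MiR-26a-5p was at 0.0019 without the unnumbered NC library, 0.11 without NC replicate 1, 0.12 without NC replicate 2 and 0.043 without RPL24 KD replicate 1. MiR-29a-3p and miR-342-3p, also of this list, had log2 fold changes of 0.051 and 0.016 (adjusted p = 0.789 and 0.967, edgeR). The median of the list was -0.17, and 3 of the 8 tested were above 0. Its lowest log2 fold change, -0.92, was that of a miR with from 5 to 50 counts a library.

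The last list was the miR-130/miR-301/miR-454 family, whose seed shares 6 letters with that of miR-148/miR-152, shifted by a base. Capitals mark these letters in the RefSeq sequences of the most abundant listed members.
miR-454-3p, chr17:59137787-59137809, minus strand: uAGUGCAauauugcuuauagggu
miR-130b-3p, chr22:21653354-21653375, plus strand: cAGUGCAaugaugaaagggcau
The letters AGUGCA start at base 2 in these miRs and at base 3 in the guides of miR-148/miR-152. Beside the 3 guides, 10 of the 2281 names with a sequence held AGUGCA within bases 2 to 8, and 4 of these were tested. All 4 were far below the abundant guides of miR-148/miR-152, from 11.5 mean counts for miR-301a-3p to 157 for miR-454-3p. None was DE by edgeR and 0 had an unadjusted p under 0.05, beside 5.00% and 23.6% of all tested miRs. With so few miRs tested, these counts cannot set the list apart from that background. The log2 fold change was 0.11 for miR-454-3p (adjusted p = 0.711, edgeR) and 0.22 for miR-130b-3p (adjusted p = 0.571, edgeR), with a median of 0.11 over the 4. Single libraries moved both: miR-130b-3p was at 0.41 without the unnumbered NC library and 0.15 without NC replicate 1, and miR-454-3p at -0.010 without the unnumbered RPL24 KD library and 0.27 without RPL24 KD replicate 2.

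**Figure D1:**
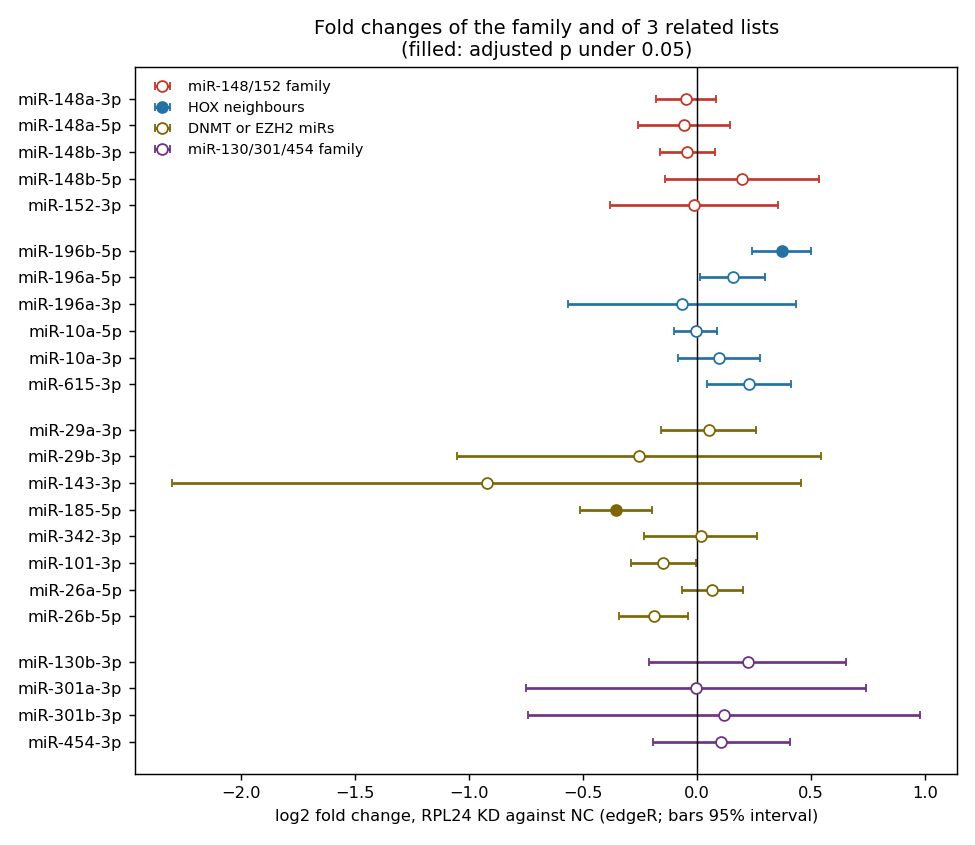
Log2 fold changes of RPL24 KD against NC with 95% intervals (edgeR) for the 5 members and the tested miRs of the 3 lists; filled points have an adjusted p under 0.05. The intervals of all 5 members include 0, and the filled points are miR-196b-5p at 0.37 and miR-185-5p at -0.35.

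The miRs whose profile over the 6 libraries was most like that of each member were found by the root mean square difference of log2 CPM, each profile centred on its own mean. The same miRs, miR-340-3p, miR-330-5p and miR-151a-3p, were the nearest 3 to miR-148a-3p, at 0.0356, 0.0406 and 0.0421, and to miR-148a-5p, at 0.0281 (miR-340-3p), 0.0554 (miR-330-5p) and 0.0410 (miR-151a-3p). The median over the other tested miRs was 0.23 for both. Nearest to miR-148b-3p were miR-106b-3p (0.0336), miR-221-3p (0.0389) and miR-28-3p (0.0398). Nearest to miR-148b-5p were miR-378f (0.0656), miR-378a-3p (0.0821) and miR-625-3p (0.0879), and nearest to miR-152-3p were miR-129-5p (0.102), miR-708-3p (0.129) and miR-1277-5p (0.139). Some of these miRs had few reads, with mean counts of 61.7 for miR-330-5p, 63.2 for miR-378f, 65.8 for miR-708-3p and 44.3 for miR-1277-5p. Counting error enters such profiles, and the nearest miRs were picked from all other tested miRs, so a small distance need not mean a shared profile. The likeness is a description over 6 libraries of 2 groups.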

How the data were processed

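Small RNA libraries of 3 RPL24 KD and 3 NC samples of HEK293T were analysed. Reads were cleaned by the authors with Flexbar and assigned to miRBase miRs with miRExpress, and the deposited table gives raw counts for each mature miR, not normalized. The submitters' processing notes name FastQC 0.11.9 and DESeq2. Groups came from the labels, which give no batch or date. The number of per-sample columns not used was 0.

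Counts were fitted over the whole table with edgeR 4.0.16 in R 4.3.3: TMM, filterByExpr with a minimum count of 10, quasi-likelihood test in its current form (not the legacy form), no replicate block, Benjamini-Hochberg adjustment. Standard errors are those implied by the F statistic. DESeq2 1.42.0 was an alternative. Both were run on simulated data with the same spread setting for every miR and changes larger than the estimate of any member. Detection of small changes was therefore not tested. Log2 ratios used a pseudocount of 0.5 counts and exact permutation tests (scipy 1.17.1), and likeness used log2(CPM + 1). Depth ran from 398721 to 611745 counts. Reads without molecular identifiers are not separate molecules, which the intervals of shares do not cover. Sequences came from RefSeq (GRCh38.p14) and hosts from GENCODE 29.

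The members, the lists and the rule for names were chosen with earlier results of these data known. Named were the members, the nearest miRs by likeness, and at most 6 of each list by highest mean CPM; miR-92a-3p and miR-301a-3p were named after their values were seen. Alternatives were other scalings, filters and tools, the replicate block and leaving out each library. Added after seeing the data were the numbered libraries fitted unpaired, total counts without miR-148a-3p and the legacy test.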

Additional observations from a re-analysis of the deposited data

How the results depend on the processing

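The replicate block could use only the 4 numbered libraries, so it changed the libraries as well as the pairing, and the unpaired fit of the same libraries stands beside it. The number of members DE, 0, was 1 with the replicate block and 1 with the numbered libraries fitted unpaired, in both cases miR-148a-3p, and 0 in each of the 6 fits without a library and in the other alternatives run. The log2 fold change of miR-148a-3p was -0.17 with the replicate block (adjusted p = 0.00897, edgeR) and -0.17 without pairing in the same libraries. The numbers were not shown to pair the libraries: deviations from the group means, over 360 miRs, correlated at -0.14 between the libraries numbered 1 and at 0.10 between those numbered 2. The number of DE miRs went from 18 of 360 to 34 of 369 on dropping the unnumbered libraries and to 52 of 369 on adding the replicate block. With the block miR-26b-5p (adjusted p = 0.0311, edgeR) and miR-615-3p (adjusted p = 0.0456, edgeR) were called, and without it in the same libraries they were not (adjusted p = 0.108 and 0.147, edgeR). The paralog ratio of miR-148a-3p over miR-152-3p was 0.051 and that of miR-148b-3p over miR-152-3p 0.17 under the replicate block, against -0.046 and -0.045. For these ratios the mean difference within numbers equals the unpaired difference of the same 4 libraries, so the shift comes from the libraries left out.

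The number of DE miRs was 31 without a filter, 34 with robust edgeR, 28 with total counts, 30 with total counts without miR-148a-3p and from 4 to 29 without a library. Without a library the log2 fold changes ranged from -0.13 to 0.034 for miR-148a-3p, from -0.15 to 0.037 for miR-148a-5p, from -0.17 to 0.25 for miR-152-3p, from 0.13 to 0.34 for miR-148b-5p, from -0.022 to 0.036 for miR-10a-5p and from -0.010 to 0.27 for miR-454-3p. The differences in ratio ranged from -0.0063 to 0.028 for the arms of miR-148a, from -0.098 to 0.052 for miR-148a-3p over miR-148b-3p, from -0.22 to 0.051 for miR-148a-3p over miR-152-3p and from -0.28 to 0.15 for miR-148b-3p over miR-152-3p. The log2 fold change of miR-152-3p was 0.00068 without a filter. That of miR-10a-5p was 0.0016 with DESeq2 on the tested miRs, 0.013 with its default filtering, 0.0015 with RLE and 0.0081 without a filter. The cause was not tested.

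Of 89 member fold changes recomputed, 82 had the reported sign and call, 2 gained a call and 5 changed sign. MiR-148b-5p could not be fitted in the alternative that required a mean of 100 counts. Counting error was largest for miR-148b-5p and miR-152-3p, with counting CVs of 13.5% and 8.85% in NC. The observed NC CV of miR-152-3p, 30.7%, was well above its counting CV.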
